A study of Mus musculus with 8 samples.

Results

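The levels described here are those of every annotated gene in solvent-treated RAW264.7 cells, taken from the 2 mock libraries among the 8 libraries of the study. The rule used the count columns of those 2 libraries and the gene length, and no difference between groups. RAW264.7 is an established mouse macrophage-like line, raised from a tumour that Abelson leukaemia virus induced in a BALB/c mouse. Mock cells received the solvent DMSO, and the labels gave no dose or time for it. The other groups, of 2 libraries each, were labelled with Tubuloside B (TubB), for 24 h with 10 ng/ml lipopolysaccharide and 20 ng/ml interferon gamma (LPS_IFNg), or with both (LPS_IFNg_TubB). All were polyadenylated RNA from 1 cell line, so the levels are those of this line in culture and not of a primary macrophage. Nothing in the labels says that the replicates came from separate cultures, so the spread between them may be technical.

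Macrophages are phagocytes that depend on signalling through the colony-stimulating factor 1 receptor and on the transcription factor PU.1. They detect microbes through Toll-like and other pattern receptors, take up particles through Fc, complement, scavenger and lectin receptors, and break them down in lysosomes. RAW264.7 is widely used for such work and also as a source of osteoclast-like cells, the bone-resorbing relatives of macrophages.

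Counts summed to 6648055 in replicate 1 and 6435249 in replicate 2. Of 42454 annotated genes, 14728 and 14509 held at least 1 count. Counts were divided by gene length and scaled to sum to 1000000 in each library, the unit TPM of transcripts out of that total, and 1 count in a gene of 1 kb was worth 0.377 TPM in replicate 1 and 0.385 TPM in replicate 2. A gene counted as expressed at 1 TPM or more in both libraries, and low where it held counts but missed that level. By this rule 10754 genes were expressed (25.3% of all genes), 5205 were low and 26495 held no counts. Of the 23207 protein-coding genes, 9884 were expressed (42.6%) and 10614 held no counts. These shares of all genes and of protein-coding genes are the background for each count of list members below. A share near them says little about a list. The labels mention no molecular identifiers, so reads cannot be taken as separate molecules, and intervals and limits at low counts describe counting error and nothing else.

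A gene with a second, numbered entry in the annotation needs separate reading, since reads that map to both places were left out of the counts. There were 1740 such symbols, and 1347 of them held 0 counts in mock. Where a gene below is said to have a numbered copy, a level of 0 or near 0 does not show that it is off. Reads that a gene without such a copy shares with any other place were left out as well. The level, rank or share of such a gene can be too low, and by how much was not tested.

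Outside the mock group, 2 genes of classical activation went against the labels, and mock itself was on the low side of both. Nos2, the inducible nitric oxide synthase, was at 111 and 96.6 TPM in mock and at 127 and 103 TPM in the libraries labelled LPS_IFNg. The libraries labelled TubB held 3657 and 3202 TPM of Nos2, and those labelled LPS_IFNg_TubB 3960 and 3349 TPM. Ptgs2, the inducible cyclooxygenase, was at 26.6 and 26.0 TPM in mock, 26.4 and 26.8 TPM in those labelled LPS_IFNg, 1116 and 727 TPM in those labelled TubB, and 1051 and 767 TPM in those labelled LPS_IFNg_TubB. No TPM level below comes from those other libraries.

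The 4 genes that mark the cells were all expressed, at levels spread over 3 orders of magnitude. Lyz2, the macrophage lysozyme (chr10:117277541-117282272 in GRCm38.p6), was at 11641 and 11108 TPM (11374 ± 377 SD, n = 2), the 4th highest of all genes. Spi1, which encodes PU.1 (chr2:91082368-91115759), was at 443 and 385 TPM (414 ± 41.2 SD, n = 2) and ranked 366th. Csf1r, the receptor for colony-stimulating factor 1, was at 312 and 327 TPM (319.6 ± 10.9 SD, n = 2) and ranked 472nd. Adgre1, which encodes the surface antigen F4/80 (chr17:57358581-57483529), was far lower at 9.33 and 10.5 TPM (9.90 ± 0.808 SD, n = 2), from 83 and 91 counts, and ranked 7835th. The order of the 4 genes was the same in both libraries.

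Of 23 further genes of macrophage identity, 20 were expressed (87.0%, against 42.6% of protein-coding genes) and 16 reached 100 TPM in both libraries. This list, like those below, was drawn up with earlier results of these data known, so such shares are descriptions only. The highest was Cd14, the co-receptor for lipopolysaccharide, at 2348 and 2398 TPM. Cd68, a lysosomal membrane glycoprotein, was at 2043 and 2225 TPM, and Fcer1g and Tyrobp, the adaptors that signal for many myeloid receptors, were at 1578 and 1554 TPM and 1248 and 1285 TPM. Cyba, the small membrane subunit of the phagocyte NADPH oxidase, was at 1179 and 1192 TPM, and Lgmn, the lysosomal protease legumain, at 841 and 835 TPM. Mpeg1, the pore-forming perforin-2, was at 643 and 611 TPM, and Coro1a, an actin-binding protein of leukocytes, at 475 and 491 TPM. Itgam, the CD11b integrin chain, stood at 111 and 112 TPM, and Ptprc, the CD45 phosphatase of leukocytes, at 87.3 and 98.3 TPM. The lowest expressed member was Cd48, at 4.18 and 8.79 TPM. The 3 members with 0 counts were Mertk, Laptm5 and Aif1. Mertk has no numbered copy, and a count of 0 allows it up to 0.113 TPM over both libraries. Laptm5 and Aif1 have numbered copies, so their level is not known from these counts.

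**Figure D1:**
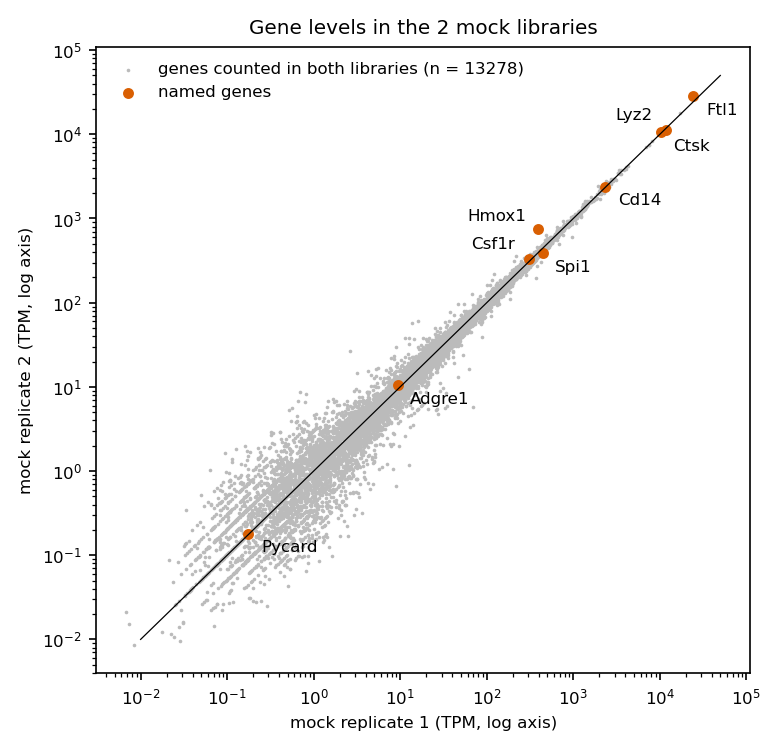
Each grey point is 1 of 13278 genes counted in both mock libraries, with its level in replicate 1 on the horizontal and in replicate 2 on the vertical axis (TPM, both logarithmic) and the line of equality in black; orange points are 9 named genes. The points narrow towards the line as the level rises, Lyz2 and Ctsk lie on it at the upper end, and Hmox1 lies above it at 395 and 747 TPM.

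The spread between the libraries shrank with the level of the gene. Over the 140 genes with a mean of 1000 TPM or more, the median absolute log2 difference between the libraries was 0.05. It was 0.08 over the 1613 genes from 100 to 1000 TPM, 0.12 over the 6046 genes from 10 to 100 TPM that were counted in both libraries, 0.30 over the 3296 such genes from 1 to 10 TPM, and 0.84 over the 2183 below that. Across the 10754 expressed genes, Pearson's r of log2 TPM between the libraries was 0.99, a value across genes, which are not independent replicates. Of 7395 genes at 10 TPM or more in both libraries, unnamed gene models and mitochondrial genes left out, 73 differed by more than 1.5-fold and 6 by more than 2-fold. Ranked by the ratio alone, which favours rows with few counts, most of the genes that differed most were short RNAs with few counts. Genes with many counts differed as well, and 3 are named here after their values were seen. Gpx1 (2701 and 1632 counts) and Selenoh (666 and 352 counts) were lower in replicate 2, and Hmox1 (1654 and 3054 counts) was higher. The 5 most raised in replicate 2 were Mir703 (4 and 16 counts), Snord72 (2 and 6 counts), Scarna2 (3 and 6 counts), Snord99 (7 and 14 counts) and the dynein light chain gene Dynlt1c (19 and 37 counts). The 5 most raised in replicate 1 were Rn7sk, the small nuclear RNA that restrains transcription elongation (55 and 14 counts), Snora31 (16 and 7 counts), Mir186 (4 and 2 counts), Mir142b_1 (6 and 3 counts) and Spata6 (132 and 69 counts).

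TPM was concentrated in few genes. The 10 highest held 10.997% of all TPM in replicate 1 and 11.4% in replicate 2, the 100 highest 30.9% and 31.5%, and the 1000 highest 65.8% and 66.2%. Protein-coding genes held 96.6% and 96.7%, and long non-coding RNA genes, 541 of them expressed, 0.768% and 0.771%. Transfer and ribosomal RNA genes of the mitochondrial genome held 1.22% in each library. None of the protein-coding genes of the mitochondrial genome was among the annotated genes counted. They are therefore missing from the TPM total and from the ranks and shares given here.

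The most abundant transcripts were those of iron storage, lysosomal digestion and translation. Ftl1 and Fth1, the light and heavy chains of ferritin, were the highest and the second highest, at 24425 and 28201 TPM and at 17089 and 17878 TPM. Replicate 2 held more Ftl1 than replicate 1, and this was the widest gap in TPM among the 10 highest genes. Eef1a1, the translation elongation factor that brings aminoacyl-tRNA to the ribosome, followed at 12244 and 11797 TPM. Ctsk, the collagen-degrading cysteine protease cathepsin K, stood just below Lyz2 at 10209.9 and 10527 TPM, and Ctsd, the aspartic protease cathepsin D, at 8139.7 and 8422 TPM. Next came Actb, cytoplasmic beta-actin, at 7540.3 and 7520.3 TPM. Spp1, the secreted phosphoprotein osteopontin, was at 7508 and 7421 TPM, and Gpnmb, a glycoprotein of lysosomes and the cell surface, at 6843 and 6993 TPM. Rplp1, an acidic protein of the ribosomal stalk, closed the first 10 at 4332 and 4222 TPM. For all 10 genes but Ftl1 and Fth1 the SD was under 400 TPM, and the libraries gave the first 9 the same order.

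**Figure D2:**
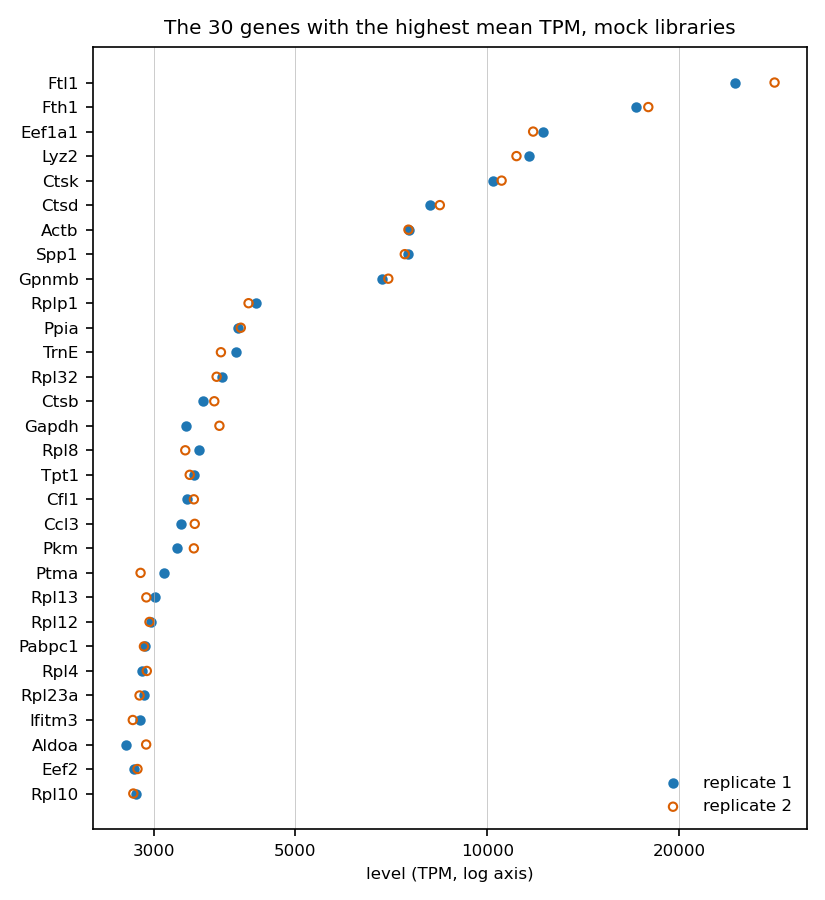
The 30 genes with the highest mean level are listed from top to bottom, with the level in TPM on a logarithmic horizontal axis, replicate 1 as filled blue and replicate 2 as open orange circles. The upper 9 genes, from Ftl1 at 24425 and 28201 TPM to Gpnmb at 6843 and 6993 TPM, stand apart from the other 21, which lie between 2710 and 4332 TPM.

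Places 11 to 30 held the genes of large-subunit ribosomal proteins Rpl32, Rpl8, Rpl13, Rpl12, Rpl4, Rpl23a and Rpl10. Ppia, the prolyl isomerase cyclophilin A, was at 4059 and 4105 TPM. Ctsb, the cysteine protease cathepsin B, was at 3587 and 3731 TPM. Gapdh, Pkm and Aldoa, 3 enzymes of glycolysis, were at 3371 and 3801 TPM, 3265 and 3466 TPM and 2710.4 and 2917 TPM. Ccl3, the chemokine MIP-1 alpha, was the only chemokine among the 30, at 3312 and 3477 TPM. Ifitm3, an interferon-inducible membrane protein that restricts virus entry, was at 2853 and 2779.9 TPM. Cfl1, the actin-severing protein cofilin, was at 3385 and 3466 TPM, and Tpt1, Ptma, Pabpc1 and Eef2 filled the remaining protein-coding places. The only non-coding member was TrnE, the mitochondrial transfer RNA for glutamate, at 4038 and 3821 TPM. It is 69 bases long, its TPM rests on 740 and 684 counts, and by CPM, the counts scaled to the same total without the length, it ranked 2149th. The libraries were of polyadenylated RNA without strand, and mitochondrial protein-coding genes were not counted. Whether the counts at TrnE came from the transfer RNA itself or from longer transcripts over the same bases was not tested.

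Promoter sequence was examined for genes of high level in several functions, because the levels above differ by function and the sequences show how unlike their start regions are. Promoters from RefSeq on GRCm38.p6, the build of the counts, spanned 250 bases before to 50 after the start site, and 25572 genes of the table matched. Searched on both strands were GAGGAAGT for PU.1, TTNNGCAA for C/EBP, TGANTCA for AP-1 and CACGTG for the E-box, the core of the CLEAR element of lysosomal genes. Matches of different words may share bases. TATAAA was searched on the gene's strand, with its first base 40 to 20 bases before the start. Motif matches are in capitals in the 5 sequences below, each written 5′ to 3′ on the strand of its gene. The first is Cd68, a macrophage surface and lysosome marker (chr11:69666121-69666420, minus strand). Ctsk (chr3:95498960-95499259, plus strand) and Ctsd (chr7:142387778-142388077, minus strand) are the 2 most abundant cathepsins. Spp1 (chr5:104434861-104435160, plus strand) and Gpnmb (chr6:49036268-49036567, plus strand) are the other secretory or lysosomal genes among the 9 highest that hold a match. The 5 were chosen after their levels and matches were seen, and Lyz2 is left out because none of these words is in its window.
Cd68: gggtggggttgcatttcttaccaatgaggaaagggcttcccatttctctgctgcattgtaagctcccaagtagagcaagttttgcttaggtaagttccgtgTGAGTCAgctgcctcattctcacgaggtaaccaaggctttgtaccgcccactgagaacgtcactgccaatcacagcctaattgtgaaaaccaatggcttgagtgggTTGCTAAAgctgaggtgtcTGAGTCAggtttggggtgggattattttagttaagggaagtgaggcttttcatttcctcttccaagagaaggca
Ctsk: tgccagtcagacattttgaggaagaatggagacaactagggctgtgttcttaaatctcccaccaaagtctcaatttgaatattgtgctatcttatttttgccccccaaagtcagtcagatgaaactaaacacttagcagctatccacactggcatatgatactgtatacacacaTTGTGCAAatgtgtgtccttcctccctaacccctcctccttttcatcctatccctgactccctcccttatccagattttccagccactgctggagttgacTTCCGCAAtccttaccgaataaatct
Ctsd: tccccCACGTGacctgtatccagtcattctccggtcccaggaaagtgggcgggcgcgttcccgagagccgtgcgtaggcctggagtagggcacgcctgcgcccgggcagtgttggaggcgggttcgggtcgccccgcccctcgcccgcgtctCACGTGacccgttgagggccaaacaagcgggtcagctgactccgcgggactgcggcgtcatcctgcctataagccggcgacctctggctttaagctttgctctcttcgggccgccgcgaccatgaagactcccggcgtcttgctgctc
Spp1: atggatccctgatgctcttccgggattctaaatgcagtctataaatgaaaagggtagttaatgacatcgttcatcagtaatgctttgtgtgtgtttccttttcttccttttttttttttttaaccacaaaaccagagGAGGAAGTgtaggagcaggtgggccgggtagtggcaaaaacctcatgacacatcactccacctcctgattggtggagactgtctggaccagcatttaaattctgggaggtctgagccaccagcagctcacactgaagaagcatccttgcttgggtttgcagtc
Gpnmb: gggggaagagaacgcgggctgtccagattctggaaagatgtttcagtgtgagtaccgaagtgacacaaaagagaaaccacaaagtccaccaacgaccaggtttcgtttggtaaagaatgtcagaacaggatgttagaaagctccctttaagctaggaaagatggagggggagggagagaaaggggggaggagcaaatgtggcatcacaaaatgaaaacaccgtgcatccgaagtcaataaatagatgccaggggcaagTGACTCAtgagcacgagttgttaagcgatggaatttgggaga

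The Cd68 promoter held a C/EBP match that begins 43 bases before the start and AP-1 matches at 149 and 24 bases before it. The Ctsk promoter held C/EBP matches at 76 bases before and 25 bases after the start. The Ctsd promoter held 2 E-box matches, at 245 and 98 bases before the start. The Spp1 promoter held a PU.1 match at 113 bases before, and the Gpnmb promoter an AP-1 match at 9 bases after. Among all 25572 promoters, 3.20% held the PU.1 word, 10.8% the C/EBP word, 7.88% the AP-1 word, 7.39% the E-box and 2.24% the TATA word. A match is a description of the letters and not of binding.

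CpG content divided these promoters. The ratio of observed to expected CpG was 0.972 for Ctsd, 0.592 for Gpnmb, 0.240 for Cd68, 0.195 for Spp1 and 0.155 for Ctsk. A ratio of 0.6 or more, termed CpG-rich here, was found in 49.0% of 17048 promoters of protein-coding genes. It was found in 80.3% of 1393 such genes at 100 TPM or more, in 81.1% of 4718 from 10 to 100 TPM, in 65.5% of 1844 expressed below 10 TPM, in 39.2% of 1981 low genes and in 20.0% of 7112 without counts. Of the macrophage markers and identity genes 18 had a promoter in the reference table, and 2 of the 18 (11.1%) were CpG-rich. Of 21 cathepsin and lysosome promoters 6 were CpG-rich (28.6%), and of 52 ribosomal protein promoters 45 (86.5%). Of the 18 macrophage promoters, 2 held the PU.1 word (11.1%), those of Cd53 and Ctss, 2 the C/EBP word, 2 the AP-1 word and 0 the E-box. Of the 21 lysosome promoters, 3 held the PU.1 word (14.3%), those of Ctsc, Gusb and Ctss, 4 the C/EBP word (19.0%), 2 the AP-1 word (9.52%) and 4 the E-box (19.0%), those of Ctsd, Ctsf, Ctsl and Lamp1. With counts this small, none of these shares is read as apart from those of all promoters given above. Spi1, Tyrobp and Adgre1 were not among the promoters matched.

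Over 11 classes of receptors, which also hold some of their ligands and signalling partners, 112 of 184 genes were expressed (60.9%, against 42.6% of protein-coding genes), 27 were low and 45 held no counts, 7 of these with a numbered copy. Receptors for colony-stimulating factors and early cytokines were led by Csf1r. The shared beta chain Csf2rb was at 62.8 and 68.4 TPM, its close relative Csf2rb2 at 41.7 and 46.4 TPM and the GM-CSF receptor alpha chain Csf2ra at 28.1 and 28.9 TPM. Csf3r, the G-CSF receptor of neutrophils, was low at 0.837 and 0.923 TPM (95% Poisson interval of the mean 0.58 to 1.28 TPM). Kit, Flt3 and Il3ra, receptors of progenitors, held no counts, which allows up to 0.104, 0.096 and 0.194 TPM. Of the ligands on the same list, Csf1 was at 7.66 and 6.80 TPM, Csf3 at 23.6 and 29.9 TPM and Il34 at 1.97 and 4.04 TPM, while Csf2 held no counts. The CSF1 receptor therefore stood more than 4-fold above every other member of the list in both libraries.

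Of 12 Toll-like receptors 8 were expressed (66.7%, against 42.6% of protein-coding genes). Tlr2, the receptor for bacterial lipoproteins, led at 122 and 104 TPM, and Tlr13, an endosomal sensor of bacterial ribosomal RNA, followed at 84.6 and 94.6 TPM. Tlr7, for single-stranded RNA, was at 44.1 and 49.4 TPM, Tlr4, for lipopolysaccharide, at 29.5 and 26.9 TPM and Tlr9, for unmethylated CpG DNA, at 15.4 and 17.1 TPM. The partners of Tlr2 were lower, with Tlr6 at 8.31 and 9.38 TPM and Tlr1 at 3.49 and 5.52 TPM, and Tlr3, for double-stranded RNA, was lowest of the 8 at 2.30 and 3.80 TPM. Tlr8 was low with 2 and 5 counts. Tlr5, the flagellin receptor, and Tlr11 held no counts, which allows up to 0.098 and 0.178 TPM, and Tlr12 has a numbered copy. The order from Tlr2 to Tlr9 was the same in both libraries.

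Co-receptors and adaptors of these receptors were expressed in 14 of 16 cases. Below Cd14 came Unc93b1, which carries the endosomal receptors out of the endoplasmic reticulum, at 257 and 250.05 TPM. Cd180, a lymphocyte and macrophage relative of Tlr4, was at 173 and 164 TPM, Myd88, the adaptor of most Toll-like receptors, at 90.6 and 83.0 TPM and the inhibitor Tollip at 88.3 and 87.6 TPM. Ly96, the MD-2 partner of Tlr4, was at 30.6 and 39.0 TPM, beside Tlr4 at 29.5 and 26.9 TPM. Ly86, the MD-1 partner of Cd180, held 1 and 0 counts (interval of the mean 0.00484 to 1.06 TPM), far below Cd180. Lbp, the serum protein that hands lipopolysaccharide to Cd14, held no counts.

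Cytosolic sensors of nucleic acid and peptidoglycan were expressed in 8 of 11 cases, none of them above 40 TPM. The kinase Ripk2 was at 31.7 and 36.5 TPM, the DNA sensor Cgas at 31.4 and 34.0 TPM and its effector Tmem173 (STING) at 22.96 and 23.01 TPM. Mavs, the adaptor of the RNA helicase sensors, was at 29.6 and 31.9 TPM, above its sensors Ddx58 (RIG-I) at 5.64 and 5.77 TPM and Ifih1 (MDA5) at 1.04 and 0.663 TPM. Aim2, which senses DNA and builds an inflammasome, was at 23.5 and 24.0 TPM.

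Inflammasome genes were expressed in 10 of 18 cases (55.6%, against 42.6% of protein-coding genes), with a gap at the adaptor. The sensor Nlrp3 was at 45.9 and 50.7 TPM, its kinase partner Nek7 at 47.9 and 50.9 TPM, Casp1 at 60.7 and 56.8 TPM, Casp4 at 26.1 and 20.2 TPM and the pore-former Gsdmd at 49.2 and 48.5 TPM. Pycard, the adaptor ASC that links sensor and caspase, held 1 count in each library, a mean of 0.178 TPM with an interval of 0.0216 to 0.645 TPM. P2rx7, the ATP-gated channel upstream of Nlrp3, was at 16.2 and 15.1 TPM. The substrate cytokine Il1b held 0 and 1 counts, and Il18 was at 2.21 and 3.39 TPM. Mefv held no counts, and neither did Nlrp1a and Nlrp1b, which have numbered copies. Of those copies, Nlrp1b_3 was expressed, with 45 and 55 counts. Nlrp3, Casp1, Casp4 and Gsdmd were thus each at 20.2 TPM or more in both libraries, while the upper bound of Pycard was below 1 TPM.

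All 8 genes of the Fc receptor group were expressed. Fcer1g led. Inpp5d, the SHIP1 phosphatase that restrains signalling, was at 101.2 and 106 TPM, the inhibitory receptor Fcgr2b at 98.3 and 96.2 TPM and the kinase Syk at 79.9 and 81.3 TPM. The activating receptors were lower, with Fcgr4 at 35.8 and 27.4 TPM, Fcgr3 at 18.02 and 23.4 TPM and the high-affinity Fcgr1 at 11.6 and 12.7 TPM. In both libraries Fcgr2b stood above each activating receptor. Fcgrt, the neonatal Fc receptor, was barely above the level that counts as expressed, at 1.29 and 1.76 TPM.

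Of 17 complement receptors and integrins 14 were expressed. Itgb2, the CD18 chain shared by leukocyte integrins, was at 357 and 403 TPM, over 3-fold above its partner Itgam in both libraries. The other partners were Itgax, or CD11c, at 26.2 and 23.5 TPM and Itgal, or CD11a, at 7.10 and 7.06 TPM. The fibronectin-binding chains Itgb1 and Itga5 were at 146 and 141 TPM and 117 and 121 TPM. C3ar1, a receptor for the complement fragment C3a, was at 84.1 and 97.6 TPM and C5ar1, for C5a, at a mean of 3.33 ± 0.888 TPM (SD, n = 2). Vsig4, a complement receptor of resident macrophages, held no counts, which allows up to 0.398 TPM.

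Scavenger receptors were expressed in 7 of 13 cases (53.8%, against 42.6% of protein-coding genes). Below Cd68 stood Colec12 at 407 and 418 TPM, the fatty acid and lipoprotein receptor Cd36 at 173 and 192 TPM, and Msr1, the class A scavenger receptor for modified lipoprotein, at 131 and 135 TPM. Scarb1, the receptor for high-density lipoprotein, was at 57.1 and 65.0 TPM and Stab1 at 9.15 and 11.4 TPM. Marco, Cd163 and Olr1 held no counts, which allows up to 0.297, 0.127 and 0.143 TPM. Cxcl16 held none either and has a numbered copy. Marco and Olr1 held 12 and 3 counts over all 8 libraries, and Cd163 held 0.

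Of 16 C-type lectins and related receptors 10 were expressed. Lgals3, the beta-galactoside-binding galectin-3, was at 1309 and 1501 TPM, and Clec4d, a receptor for mycobacterial glycolipid, at 756 and 943 TPM. Clec5a was at 240.1 and 246 TPM, Clec4a3 at 51.0 and 57.4 TPM and Clec4e (Mincle) at 35.1 and 37.2 TPM. Clec7a, the beta-glucan receptor Dectin-1, was at 2.14 and 2.53 TPM. Mrc1, the mannose receptor used as a marker of alternative activation, was low with 5 and 1 counts (interval 0.0789 to 0.468 TPM). Cd209a and Cd209b held no counts, and neither did Clec10a and Mgl2, which have numbered copies. The 10 expressed members thus ran from Clec7a to Lgals3, from about 2 to over 1000 TPM.

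Paired and inhibitory receptors were expressed in 17 of 24 cases and included some of the most abundant receptor transcripts. The immunoglobulin-like receptors Lilrb4a and Lilr4b were at 1305 and 1451 TPM and 776 and 867 TPM. Sirpa, which binds the CD47 signal on other cells, was at 331 and 333 TPM, Cd33 at 149 and 131 TPM, Cd300a at 92.4 and 94.4 TPM and Cd200r1 at 45.8 and 43.0 TPM. Lilrb4a and Lilr4b are close paralogs, and reads shared by them would not have been counted for either. Siglecf and Siglech held no counts. Trem1, Trem2, Trem3 and Treml4 have numbered copies, and only Trem1 held any counts (0 and 2), so the level of these Tyrobp-linked receptors is not known here.

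Receptors and bridging proteins for dying cells were expressed in 6 of 11 cases (54.5%, against 42.6% of protein-coding genes). The TAM kinases were not among them. Lrp1, a large endocytic receptor, was at 339 and 311 TPM, Mfge8, a secreted bridge to phosphatidylserine, at 166 and 181 TPM and Havcr2 (TIM-3) at 52.2 and 56.6 TPM. Of the TAM kinases, Axl held 2 and 3 counts, Tyro3 2 and 5 counts and Mertk 0. Gas6, a ligand of these kinases, was at 23.5 and 27.1 TPM. Timd4 held no counts.

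Chemokine receptors were the receptor class with the smallest share expressed, 7 of 21 (33.3%). The share was 42.6% over protein-coding genes and 25.3% over all genes. Cx3cr1, the fractalkine receptor, was at 95.1 and 80.9 TPM, Cxcr3 at 46.3 and 36.2 TPM, Ccr1 at 11.8 and 14.3 TPM and Cxcr4 at 8.79 and 9.84 TPM. Ccr10, Ccrl2 and Cxcr5 were at 4.37 and 7.37 TPM, 6.53 and 4.80 TPM and 5.57 and 4.82 TPM. Ccr2, which draws monocytes to CCL2, was low with 9 and 3 counts (interval 0.298 to 1.01 TPM), and Ccr7 held no counts. Ccl2, the ligand of Ccr2, was itself among the abundant chemokines given below.

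Receptors for interferons, tumour necrosis factor, transforming growth factor and interleukins were expressed in 18 of 25 cases. The interferon gamma receptor chains were Ifngr2 at 129 and 125 TPM and Ifngr1 at 21.8 and 19.7 TPM, and the type I chains Ifnar2 at 40.8 and 38.2 TPM and Ifnar1 at 27.2 and 27.6 TPM. The tumour necrosis factor receptors Tnfrsf1a and Tnfrsf1b were at 108 and 127 TPM and 119.8 and 112 TPM, and changed order between the libraries. Il10rb, the shared chain, was at 87.5 and 89.4 TPM, while the IL-10-specific chain Il10ra was at 3.23 and 1.21 TPM. Il4ra, which receives IL-4 and IL-13, was at 1.73 and 2.95 TPM. Il1r1, the IL-1 receptor, held 1 count in each library (interval 0.00687 to 0.205 TPM).

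Purinergic, lipid mediator and metabolite receptors were expressed in 13 of 28 cases (46.4%), a share near the 42.6% of protein-coding genes. The prostacyclin receptor Ptgir led at 99.3 and 105 TPM, with the UDP receptor P2ry6 at 64.6 and 74.8 TPM and the niacin receptor Hcar2 at 62.7 and 61.2 TPM. P2ry2 was at 34.6 and 35.6 TPM, P2rx4 at 32.1 and 30.2 TPM and the adenosine receptor Adora2a at 30.2 and 27.6 TPM. Gpr84, a fatty acid receptor, was at 20.9 and 12.7 TPM. Fpr2, a formyl peptide receptor, held 0 counts in mock (up to 0.441 TPM) and 1152 over all 8 libraries, so its row can be counted.

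**Figure D3:**
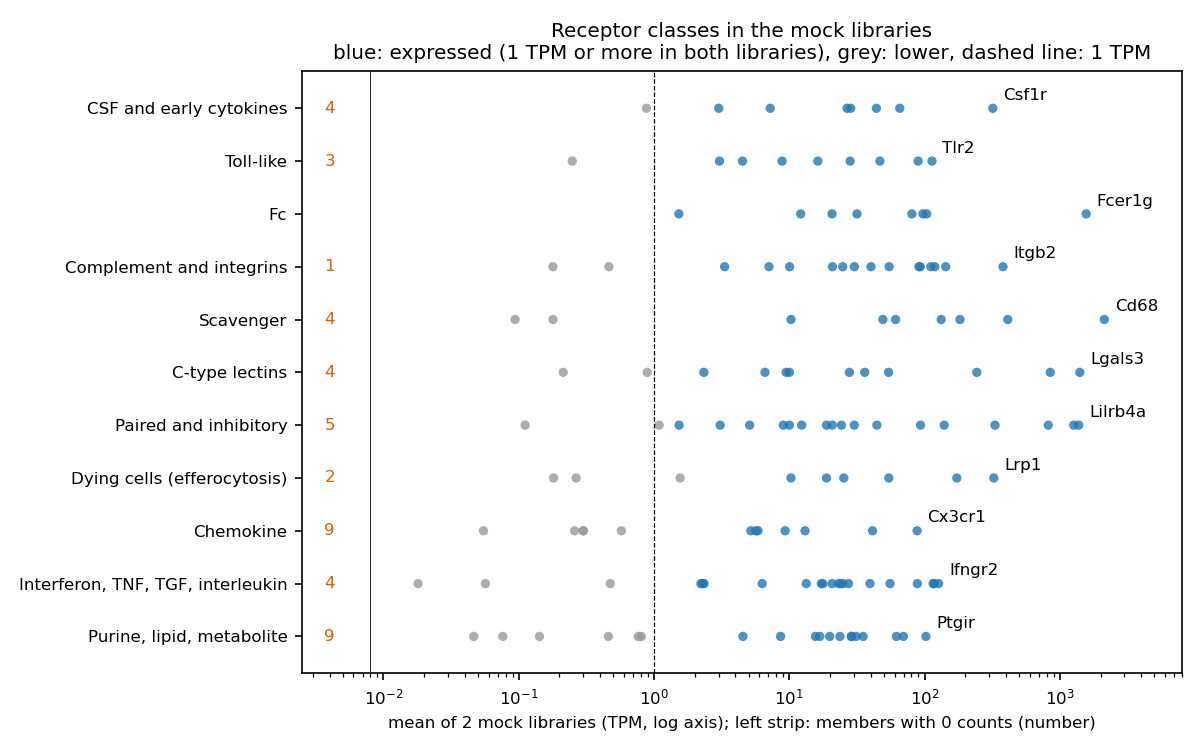
Each point is a receptor or partner gene at its mean over the 2 mock libraries (TPM, logarithmic horizontal axis) in 1 of 11 classes, blue where expressed and grey where lower, and the orange number on the left counts members with 0 counts. Fcer1g, Cd68, Lgals3 and Lilrb4a lie above 1000 TPM, all 8 Fc receptor genes lie right of the dashed line at 1 TPM, and the chemokine and the purine, lipid and metabolite classes have 9 members each at 0.

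Among transcription regulators 74 of 94 were expressed (78.7%, against 42.6% of protein-coding genes), 4 were low and 16 held no counts, 5 of these with a numbered copy. Of 41 factors of the myeloid lineage 33 were expressed, and Spi1 stood more than 2-fold above the next in both libraries. Cebpb, a factor of inflammatory and emergency myeloid programmes, was at 177 and 171 TPM and Cebpd at 66.1 and 65.8 TPM. Cebpa, which drives earlier myeloid commitment, was low with 3 and 7 counts (interval 0.347 to 1.33 TPM). Cbfb, the partner of Runx factors, was at 152 and 120.4 TPM and Runx1 at 18.3 and 15.9 TPM. The interferon regulatory factors Irf5 and Irf8 were at 90.0 and 79.4 TPM and 23.8 and 22.1 TPM. Bhlhe40 and Bhlhe41, which support macrophage self-renewal in tissue, were at 63.1 and 70.1 TPM and 67.9 and 73.5 TPM. Maf held no counts (up to 0.157 TPM).

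The 4 related factors of lysosome and osteoclast genes were all expressed, with Tfe3 at 43.0 and 51.8 TPM, Mitf at 17.9 and 17.2 TPM, Tfec at 7.52 and 9.07 TPM and Tfeb at 6.46 and 6.74 TPM. Tfe3 exceeded the others in both libraries, and Tfec and Tfeb lay near each other. Klf6 was at 71.1 and 72.1 TPM and Id2 at 76.4 and 65.8 TPM. Klf4, a factor of monocytes, was low with 2 and 1 counts. Myb, a factor of progenitors, Gfi1b, of erythroid cells and platelets, and Batf3, of dendritic cells, held no counts. Ets2 and Egr2 have numbered copies and held none.

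**Figure D4:**
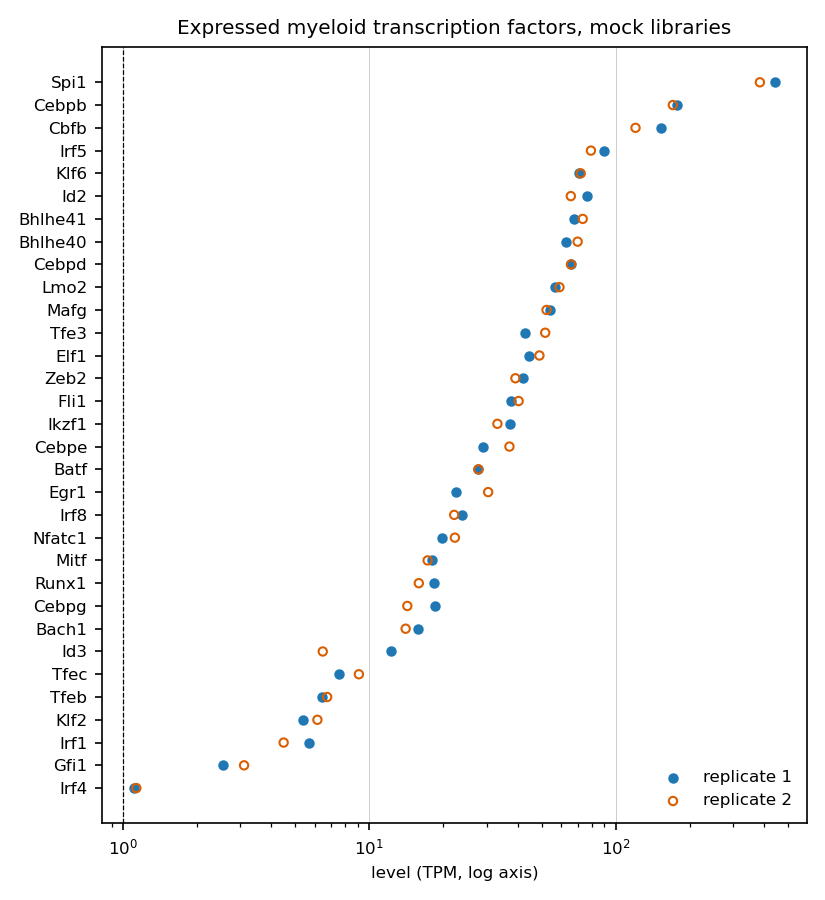
Expressed myeloid transcription factors are listed by mean level, with 1 left out, and with TPM on a logarithmic horizontal axis, replicate 1 as filled blue and replicate 2 as open orange circles, and a dashed line at 1 TPM. Spi1 stands apart at 443 and 385 TPM, the circles of most factors nearly meet, and Id3 is the widest pair at 12.2 and 6.47 TPM.

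Of 25 nuclear receptors and metabolic regulators 16 were expressed (64.0%, against 42.6% of protein-coding genes). Atf4, which answers amino acid and protein folding stress, was at 410.3 and 462 TPM, Hif1a, the oxygen-regulated factor, at 192 and 176 TPM and Nfe2l2, the NRF2 factor of antioxidant genes, at 108 and 112 TPM. Srebf2, which turns on cholesterol synthesis, was at 97.5 and 95.7 TPM. The oxysterol receptors Nr1h2 and Nr1h3 were at 54.7 and 58.3 TPM and 22.9 and 21.5 TPM, with their partner Rxra at 48.7 and 46.9 TPM. Pparg, the lipid-sensing receptor of alveolar macrophages and fat, held no counts, which allows up to 0.153 TPM. Ppara, Ahr, Esr1 and Nr4a3 held none either, and Ppard and Rxrb have numbered copies.

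Signal-dependent factors were expressed in 25 of 28 cases. Nfkbia, the inhibitor that NF-kappaB induces, was at 355 and 373 TPM, Nfkb1 at 98.6 and 90.7 TPM and Rela at 49.1 and 52.8 TPM. Of the AP-1 factors, Junb was at 234 and 223 TPM, Jun at 132 and 143 TPM and Fos at 22.3 and 32.7 TPM. Atf3, a stress-induced repressor, was at 109 and 123 TPM. Stat6, which acts for IL-4, was the highest STAT at 111 and 115 TPM, above Stat3 at 49.4 and 44.6 TPM. Stat4 held no counts, and Jund has a numbered copy.

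The 30 cathepsins and other lysosomal genes held 3.92% and 4.06% of TPM, and 27 were expressed. Beside Ctsd and Ctsb, the carboxypeptidase cathepsin Z (Ctsz) was at 2071 and 1970.3 TPM, the cathepsin L gene Ctsl at 364 and 367 TPM and Ctss, the protease of antigen processing, at 354 and 359.9 TPM. The cathepsin inhibitor gene Cstb and the progranulin gene Grn were at 1457 and 1577 TPM and 1465 and 1524 TPM, and the membrane protein Lamp1 was at 1263 and 1368 TPM. Ctsc, the activator of granule proteases, was at 6.59 and 6.44 TPM and Ctse held 0 and 1 counts. Asah1, the acid ceramidase, held 0 and 1 counts at its main entry and 118 and 118 TPM at its numbered copy.

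Osteoclast-lineage genes were expressed in 14 of 17 cases. Ctsk was the highest of them, followed by Car2, the carbonic anhydrase that supplies acid, at 818 and 809.8 TPM and Tcirg1, a subunit of the proton pump, at 618 and 650.4 TPM. The chloride channel Clcn7 was at 76.3 and 67.4 TPM, its partner Ostm1 at 49.4 and 46.2 TPM, the kinase Src at 48.3 and 50.2 TPM and the integrin chain Itgb3 at 40.02 and 40.3 TPM. Tnfrsf11a, the receptor RANK through which RANKL drives osteoclast formation, was at 16.4 and 19.0 TPM and its target factor Nfatc1 at 19.7 and 22.2 TPM. Acp5, tartrate-resistant acid phosphatase, was at 20.9 and 16.3 TPM, the fusion protein Dcstamp at 13.2 and 17.5 TPM and Mmp9 at 4.34 and 2.73 TPM. Ocstamp and Oscar were low, and Calcr, the calcitonin receptor, held no counts (up to 0.138 TPM). The level of Ctsk was therefore more than 400-fold that of Acp5 in each library.

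Of 12 genes of NADPH oxidases 8 were expressed, among them Cyba and the other parts of the phagocyte complex. The GTPase Rac2 was at 569.9 and 579 TPM, the cytosolic subunits Ncf4 and Ncf1 at 371 and 381 TPM and 237 and 238 TPM, and Cybb, the catalytic gp91 subunit, at 204 and 189 TPM. Nox3, an oxidase known from the inner ear, was at 21.9 and 20.9 TPM. Nox1 held 1 and 0 counts, and Nox4, Duox1 and Duox2 held none.

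Of 24 chemokines 9 were expressed (37.5%, against 42.6% of protein-coding genes) and 6 of them reached 100 TPM in both libraries. Of the 13 without counts, 3 have a numbered copy. After Ccl3 came Ccl2, which attracts monocytes, at 2569 and 2694 TPM. Cxcl2, which attracts neutrophils, was at 1003 and 1070.0 TPM, Ccl4 at 949.7 and 1043 TPM, Ccl7 at 503 and 580.4 TPM and Ccl9 at 182 and 167 TPM. Ccl5 was at 19.1 and 11.6 TPM and Cxcl10, the interferon-induced ligand of Cxcr3, at 3.76 and 2.80 TPM. Cxcl9, Cxcl11 and Ccl12 held no counts in mock and 182, 25 and 647 over all 8 libraries. Cxcl1 held none in any.

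Of 25 cytokines and mediators 13 were expressed (52.0%, against 42.6% of protein-coding genes). Below Spp1 stood the macrophage migration inhibitory factor gene Mif at 2459.5 and 2619 TPM, Acod1, the enzyme that makes itaconate, at 727 and 711 TPM and Il1rn, the IL-1 receptor antagonist, at 652 and 712 TPM. Tgfb1 was at 529 and 538 TPM and oncostatin M (Osm) at 25.3 and 27.2 TPM. Hmox1, the haem oxygenase, was at 395 and 747 TPM from 1654 and 3054 counts, a log2 difference of 0.92 where the median absolute difference of genes from 100 to 1000 TPM was 0.08. Il10, Il12a, Il12b, Ifnb1 and Ifng held no counts, Il6 held 1 and 0 counts and Il1a 3 and 0 counts. Arg1, a marker of alternative activation, was low at 0.51 and 0.522 TPM. Tnf has a numbered copy and held 0 counts in all 8 libraries.

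Iron genes held 4.31% and 4.82% of TPM, almost all of it ferritin. The transferrin receptor Tfrc was at 559 and 605 TPM, and Slc11a1, the metal transporter of phagosomes, at 484 and 543 TPM. Slc40a1, the iron exporter ferroportin, was at 5.83 and 12.8 TPM. Hmox1, Slc40a1 and Ftl1 were each higher in replicate 2, by 0.92, 1.14 and 0.21 on the log2 scale of TPM, and Fth1 by 0.07. The 95th percentile of the absolute log2 difference was 0.26 in the level class of Hmox1, 1.62 in that of Slc40a1 and 0.20 in that of Ftl1 and Fth1. The difference of Slc40a1 was thus within the spread of its class.

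Ribosomal protein genes held 10.7% and 10.6% of TPM, with 66 of 69 expressed. The other 3, Rps10, Rps18 and Rps28, have numbered copies and held no counts. Reads that any ribosomal protein gene shares with other places are also missing, and what this took from the shares was not tested. Genes of the cytoskeleton and motility held 2.21% and 2.27%. Beside the actin genes Actb, Cfl1, Arpc1b at 1369.5 and 1341 TPM and Capg at 1061 and 1110.5 TPM, they included Vim, the intermediate filament vimentin, at 2390.1 and 2773 TPM. Glycolysis genes held 1.60% and 1.75%, and 20 of 22 were expressed. Eno1 held 4 and 2 counts while its numbered copy Eno1_1 was at 1872 and 1956 TPM, and Ldhb held none beside Ldha at 852 and 926 TPM.

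All 18 genes of lipid and cholesterol handling were expressed. The fatty acid carriers Fabp5 and Fabp4 were at 1456 and 1389 TPM and 1145 and 1159 TPM, lipoprotein lipase (Lpl) at 476 and 549.9 TPM, the cholesterol esterifying enzyme Soat1 at 431 and 447 TPM and the lipid droplet protein Plin2 at 382 and 453 TPM. Genes of cholesterol export were lower, with Abcg1 at 41.9 and 38.9 TPM, Apoe at 6.07 and 5.87 TPM and Abca1 at 5.76 and 3.81 TPM. Antigen presentation could be read only in part, since 9 of its 17 genes have numbered copies and 8 of those held no counts. B2m, the light chain of class I molecules, was at 974 and 1014 TPM, Cd74, the class II invariant chain, at 101.1 and 114 TPM and the costimulatory Cd80 and Cd86 at 19.0 and 25.6 TPM and 2.62 and 3.91 TPM. Ciita, the master regulator of class II genes, held no counts in mock (up to 0.0583 TPM) and 28 over all 8 libraries.

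Cell cycle genes were expressed in 21 of 24 cases. Cdk4 was at 769 and 757 TPM, the replication clamp Pcna at 688 and 667 TPM, Ccnd1 at 413 and 419.9 TPM, Top2a at 247 and 233 TPM and Mki67 at 185 and 152 TPM. The tumour suppressor gene Trp53 was at 220.4 and 223 TPM and Rb1 at 6.92 and 6.97 TPM. Abl1, the cellular relative of the Abelson oncogene, was at 22.4 and 24.7 TPM. Cdkn2a, which encodes the inhibitors p16 and ARF (chr4:89274473-89294619), and its neighbour Cdkn2b (chr4:89306289-89311032) held 0 counts in all 8 libraries, which allows up to 0.503 and 0.41 TPM in mock. The next named gene on the centromeric side, Mtap (chr4:89137370-89181090), was at 114 and 115 TPM, and Dmrta1 on the other side held 0 counts.

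Genes of the Y chromosome held almost no counts. Ddx3y, Kdm5d, Uty, Eif2s3y and Zfy1 held 0 counts in all 8 libraries, and so did Xist and Tsix. The X-linked relatives of Ddx3y and Eif2s3y, Ddx3x and Eif2s3x, were at 323 and 281 TPM and 134 and 121 TPM. Of 295 genes placed on the Y chromosome 3 held counts, named here after their values were seen. These were Erdr1_1, the numbered copy of Erdr1 (83 and 90 counts), LOC115489304 (6 and 1 counts) and Gm33272 (7 and 0 counts), of which Erdr1_1 alone was expressed.

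Markers of other lineages were expressed in 17 of 161 cases (10.6%, against 25.3% of all genes and 42.6% of protein-coding genes). A further 38 were low and 106 held no counts, of which 95 have no numbered copy. Their levels summed to 601 and 599 TPM. Of 17 B cell markers, 0 were expressed and 13 held no counts, among them Cd79b, Ms4a1, Pax5 and Ebf1. All 9 epithelial markers, including Epcam, Cdh1 and the keratins Krt8 and Krt18, held no counts. None of 11 natural killer cell markers was expressed, and 10 held no counts, including Ncr1, Gzma, Gzmb and Prf1. None of 6 eosinophil markers was expressed either.

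Of 19 T cell markers 4 were expressed (21.1%, against 25.3% of all genes and 42.6% of protein-coding genes). The CD3 chains of the T cell receptor complex were not among them. Il7r, the IL-7 receptor chain, was at 63.3 and 65.1 TPM, the adaptor Lat at 18.9 and 22.1 TPM, Gata3 at 9.68 and 11.9 TPM and Cd5 at 2.27 and 1.97 TPM. Cd3d, Cd3e and Cd3g held no counts, which allows up to 0.378, 0.377 and 0.559 TPM, and Cd4 and Cd8a held none. Of 16 neutrophil markers 3 were expressed (18.75%). They were S100a8 at 38.4 and 35.4 TPM, Lcn2 at 25.6 and 22.6 TPM and Camp at 3.14 and 1.29 TPM. S100a9, which forms the calprotectin dimer with S100a8, held no counts (up to 1.09 TPM). The granule genes Ltf and Ctsg held no counts, and neither did Mpo, which has a numbered copy.

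Of 13 dendritic cell markers 4 were expressed (30.8%, against 25.3% of all genes and 42.6% of protein-coding genes). They were Bst2 at 256 and 256 TPM, Itgax as above, Cd83 at 19.9 and 15.5 TPM and Tcf4 at 2.79 and 2.86 TPM. The lineage-defining Flt3 and Clec9a held no counts, and Zbtb46 and Xcr1 were low. Other lineage lists held few expressed regulators or surface proteins, and Gata2 and Procr were both on the progenitor list. Gata2, a factor of mast cells and progenitors, was at 15.2 and 12.9 TPM, Tal1, of erythroid cells, at 21.9 and 22.4 TPM and Procr, of stem cells and endothelium, at 25.8 and 35.8 TPM. Vwf, the platelet and endothelial clotting factor, was at 10.7 and 9.05 TPM, with Kdr and Cdh5 low and Pecam1 and Tek at 0 counts. Acta2, of smooth muscle and stroma, was at 1.20 and 2.18 TPM, and the collagen genes Col1a1 and Col3a1 held 13 and 1 and 1 and 0 counts. Afp, the fetal liver protein alpha-fetoprotein, was at 46.4 and 49.3 TPM from 257 and 267 counts, while the liver genes Alb and Ttr held none.

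**Figure D5:**
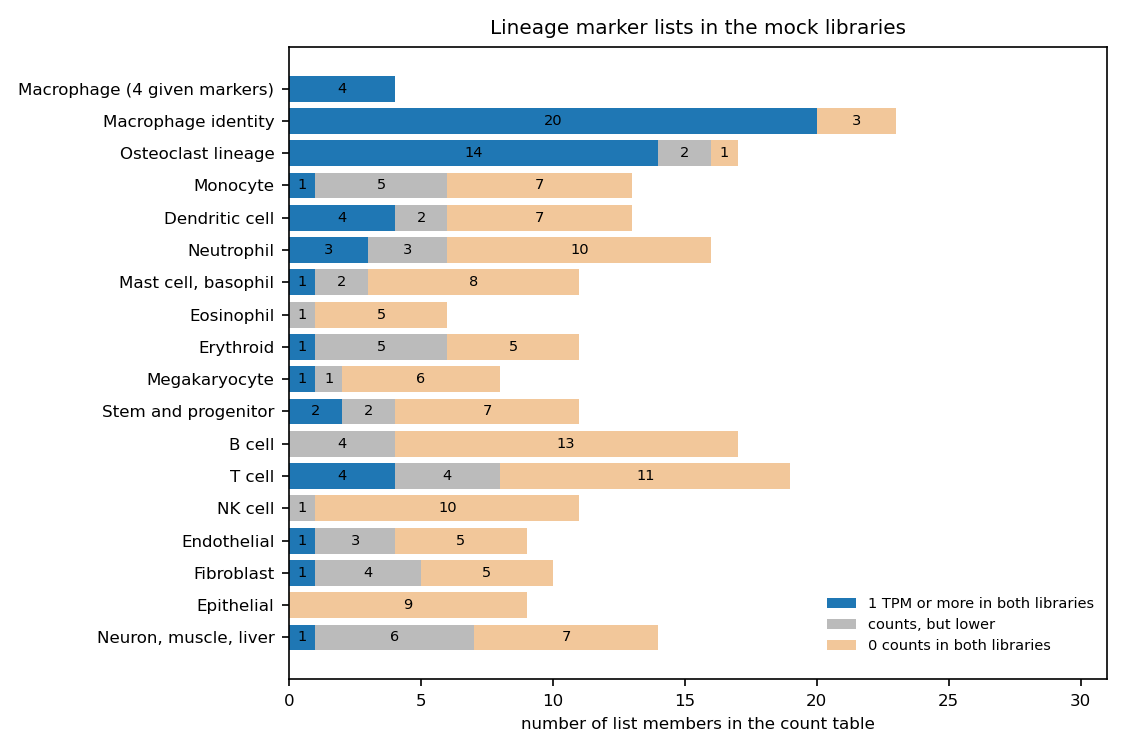
Horizontal bars give the number of genes in each lineage list, divided into expressed (blue), counted but lower (grey) and 0 counts in both mock libraries (tan). The lists of macrophage identity (20 of 23) and the osteoclast lineage (14 of 17) are mostly blue, while the epithelial list (9 of 9) and the B cell list (13 of 17) are mostly tan.

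Markers that divide resident macrophages by tissue were expressed in 11 of 40 cases (27.5%, near the 25.3% of all genes and below the 42.6% of protein-coding genes), and 22 held no counts. The factors Gata6 of large peritoneal macrophages, Spic of red pulp and Sall1 of microglia held none, which allows up to 0.173, 0.451 and 0.1 TPM. P2ry12 of microglia, Clec4f and Timd4 of Kupffer cells and Siglecf, Car4 and Chil3 of alveolar macrophages held none either. Members that were expressed came from several types, among them Fabp4 and Fabp5 of the alveolar list, Cx3cr1 and Tmem119 at 7.17 and 6.24 TPM of the microglia list, Selp at 9.64 and 8.30 TPM and Icam2 at 2.34 and 1.91 TPM of the peritoneal list, and Id3 and Nr1h3 of the Kupffer cell list. Of 13 monocyte markers 1 was expressed, Nr4a1 at 1.38 and 1.13 TPM, and Ly6c2, the Ly6C antigen gene of inflammatory monocytes, held no counts (up to 0.593 TPM). No list of a resident type or of monocytes had more than 3 members expressed.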

How the data were processed

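Polyadenylated RNA of RAW264.7 cells was sequenced in 8 libraries, of which the 2 labelled mock are described. Per the labels' protocols the library kit kept no strand, so antisense and overlapping genes cannot be told apart. The aligner was STAR 2.7.0 and the counter featureCounts, per the submitters' processing notes. Per the file headers the deposited values are raw counts from featureCounts 2.0.1, of paired reads over exons by gene, in the RefSeq annotation of GRCm38.p6, with no option for strand or multi-mapped reads, which the defaults leave out. The deposited length per gene (other values in the same table) is the summed exon length in bases, so a gene with long alternative exons gets a lower TPM than its main transcript would. The authors also deposited regularised log2 values, used only to check the column order: 8 of 8 columns were best matched by the counts of their own library.

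TPM was each count divided by gene length and scaled to 1000000 per library, over all 42454 genes. A gene without counts was given a limit of 3 counts over both libraries, and low counts an exact 95% Poisson interval of the mean. No test was made, since no groups were compared. TMM factors came from edgeR 4.0.16 in R 4.3.3. Other values were computed in Python 3.11.15 with pandas 2.3.3 and scipy 1.17.1, and the TPM code was tested on simulated data.

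Gene lists (53, with 792 of 808 genes in the table), like the choice of the libraries, were drawn up with earlier results of these data known. Named were the 30 genes with the highest mean TPM, up to 8 of the highest members of each list and those without counts, and the 5 genes on each side that differed most between the libraries, with further list members where a role needed them. Promoters (609 of list genes) came from RefSeq. Alternatives were other levels for expressed, CPM, other denominators, and each library left out. Some list members are not reported here.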

Additional observations from a re-analysis of the deposited data

How the results depend on the processing

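No paired analysis was possible because the levels come from 1 group and from no test. Without ribosomal protein and mitochondrial genes in the denominator, the 10 highest genes held 12.7% of TPM (11.2% over all genes) and the 100 highest 30.2% (31.2%), and Lyz2 was at 12905 TPM, Spi1 at 469.8 TPM, Csf1r at 363 TPM and Adgre1 at 11.2 TPM. Leaving those genes out makes the denominator smaller and also takes some of them from the 100 highest. Without unnamed gene models the 100 highest held 31.7%. Under CPM, without the length, the 10 and 100 highest held 7.99% and 20.99%, and Lyz2 ranked 11th, Spi1 516th, Csf1r 253rd and Adgre1 8063rd (4th, 366th, 472nd and 7835th by TPM). Of 53 lists, the count expressed stayed within 1.5 times under 0.5 TPM in 49, under 5 TPM in 49, under 1 CPM in 50, without replicate 1 in 52 and without replicate 2 in 51. With only members that have no numbered copy, an alternative chosen after seeing the data, it did so in 53. The lists that moved were small in counts: at 5 TPM, 4 chemokine receptors, 1 peritoneal, 0 monocyte and 0 fibroblast markers passed, and B cell markers went from 0 to 1 at 0.5 TPM, at 1 CPM and with either library left out. TMM factors were 1.003 and 0.997. At about 0.4 TPM for 1 count in 1 kb, a level below 1 TPM in a short gene rests on a few counts.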

Other observations

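Some genes that looked silent at their main entry were counted at a numbered copy elsewhere in the assembly. Of 2346 such copies, 231 held counts in mock and 132 were expressed. The highest, named after their values were seen, were Eno1_1 (the glycolytic enzyme enolase 1) at 1872 and 1956 TPM, Scpep1_1 (a serine carboxypeptidase) at 242 and 261 TPM, C1qbp_1 (a mitochondrial matrix protein) at 229 and 241 TPM and Eif3i_1 (a translation initiation subunit) at 188 and 169 TPM. Of 1740 symbols with a copy, 1239 held 0 counts at the main entry in all 8 libraries.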
